A study of Mus musculus with 20 samples.

Results

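Macrophage genes were followed in 20 RNA libraries of cultured mouse renal myofibroblasts, the contractile, matrix-producing cells that arise in the injured kidney. The list holds 32 genes, chosen by name as genes that macrophages express, out of 51826 genes in the count table, with earlier results of these data known. All 32 were found in the table, and 31 had enough counts to be tested. The exception was *Cd163*. The cells came from C57BL/6J mice and formed 4 groups of 5 libraries each: WT cells and WWP2-/- (KO) cells, each left untreated or treated with TGFβ1, the cytokine that drives fibroblasts toward the myofibroblast state. WWP2 is a ubiquitin ligase, and by the study's methods the WWP2-/- mice and their WT littermates came from heterozygous parents, with no restriction of the deletion to a cell type described. The cells had crawled out of small kidney pieces onto plastic and were used after 2 passages, without a described sort for a cell type. Nothing in the labels says whether the libraries of a group came from different mice, so *P* values measure the spread between libraries, which may in part be technical.

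Macrophages are phagocytes that live in the kidney interstitium next to tubules, vessels and fibroblasts. Their survival depends on the CSF1 receptor (*Csf1r*), and their identity on the transcription factor PU.1 (*Spi1*), which opens many of the genes followed here. Macrophages of adult tissue make complement C1q, carry Fc receptors that signal through the ITAM adaptors *Fcer1g* and *Tyrobp*, and load their lysosomes with lysozyme (*Lyz2*) and cathepsin S (*Ctss*). Resident forms in many tissues carry *Cd163*, *Folr2* and *Mrc1*. TGFβ1 is known as a signal that keeps some tissue macrophages, such as microglia, in their resident type.

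Totals lay between 47520759 and 73063697 counts per library. Levels are given as CPM, the counts of a gene scaled to a common total of all counts in its library. Where no count was seen, a true level of 3 counts remains possible, or 0.0631 CPM in the shallowest library, by counting error alone. *Wwp2* was at 19.5 to 24.0 CPM in untreated and 15.5 to 21.5 CPM in TGFβ1-treated WWP2-/- libraries, below the 46.7 to 61.6 CPM of the 10 WT libraries (log2 fold change −1.37 untreated and −1.49 with TGFβ1, adjusted *P* = 4.32e-08 and 1.05e-08, edgeR). In WWP2-/- replicate 3 and TGFβ1-treated WWP2-/- replicate 1, *Acta2*, which encodes the defining actin of myofibroblasts, was at 39.7 and 49.0 CPM, against 945 to 3337 CPM in the other 18 libraries. These 2 libraries stood apart in the macrophage genes too, as given below. In 5 libraries (WT replicates 1, 2 and 5, TGFβ1-treated WT replicate 1 and WWP2-/- replicate 1), *Xist*, a transcript of female cells, and transcripts of the Y chromosome were both above 1 CPM. The number of macrophage genes called, and the genes named below as called from other lists, are given with and without these libraries, a choice made after seeing the data.

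The libraries held macrophage transcripts in every group, in amounts that varied widely between libraries of each group. The 32 genes together took 0.0119% to 0.660% of all counts. As a single measure of the leukocyte signal, an index was taken as the mean of log2(CPM + 0.1) over *Ptprc*, *Laptm5*, *Cd53*, *Tyrobp*, *Fcer1g* and *Itgb2*, turned back to CPM. In untreated WT replicates 1 to 5 the index was 27.3, 32, 3.60, 87.2 and 15.4 CPM. In TGFβ1-treated WT replicates it was 4.82, 1.88, 12, 5.86 and 1.85 CPM. In untreated WWP2-/- replicates it was 18.1, 58.2, 4.38, 10.7 and 8.85 CPM, and in TGFβ1-treated WWP2-/- replicates 4.96, 26.8, 6.14, 73.5 and 60.9 CPM. TGFβ1-treated WT libraries were the lowest as a group, yet their highest library lay above the lowest libraries of every other group, so no group stood clear of another. In bulk RNA, fewer macrophages and less of these transcripts per macrophage cannot be told apart.

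**Figure D1:**
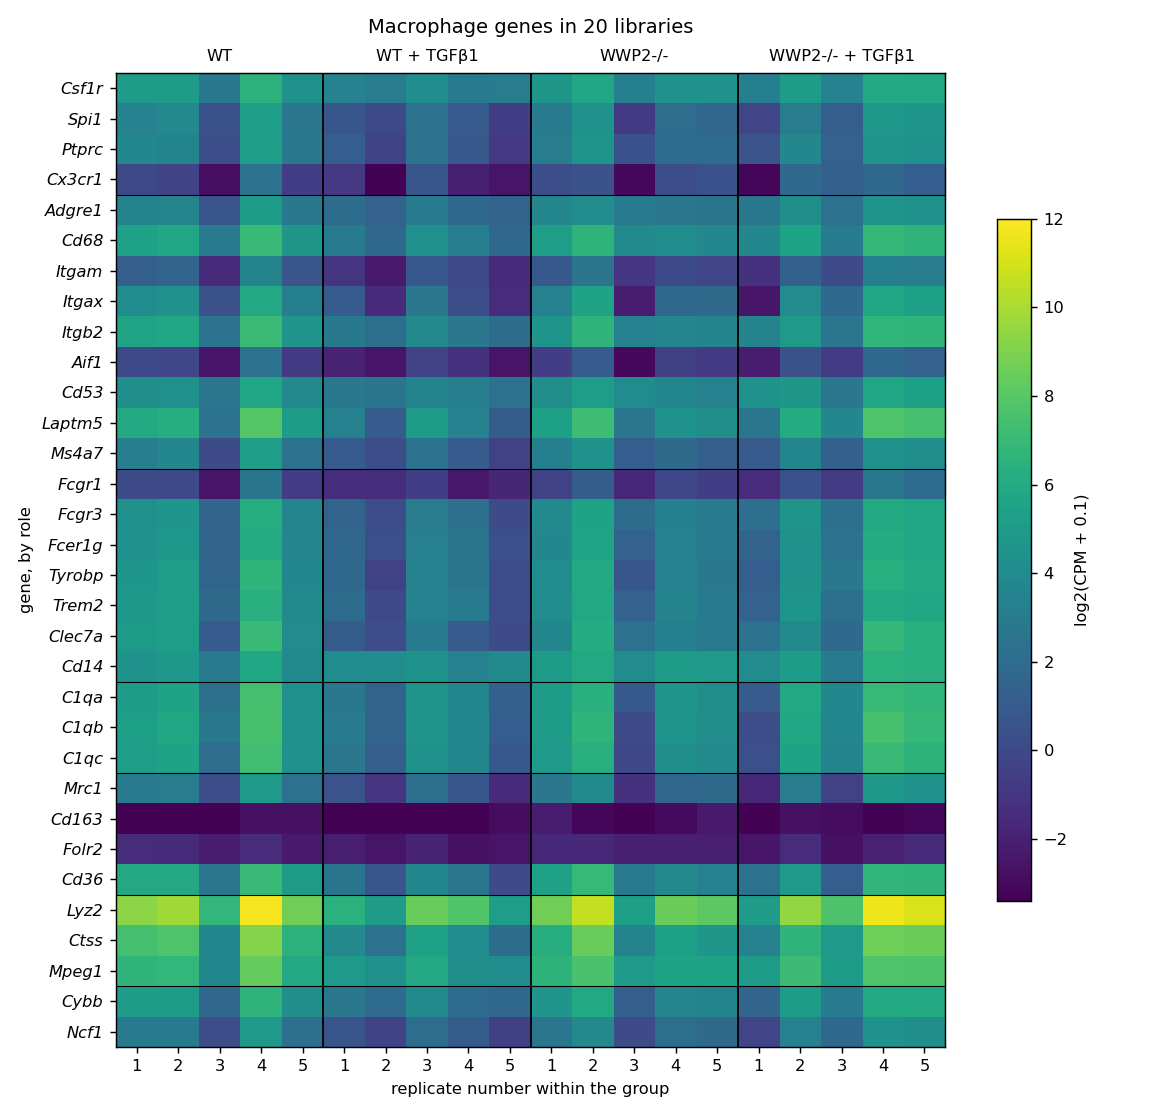
Level of each of the 32 macrophage genes (rows, grouped by role) as log2(CPM + 0.1) in each of the 20 libraries (columns, replicate numbers within the 4 groups). WT replicate 4 and TGFβ1-treated WWP2-/- replicates 4 and 5 are bright in nearly every row, TGFβ1-treated WT replicates 2 and 5 are dark, and *Cd163* and *Folr2* are near 0 throughout.

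Divided by exon length, the transcripts ranged from abundant to absent. The mean level over the 20 libraries, as CPM per kilobase of exon (RPKM), was 580 for *Lyz2*, 93.3 for *Ctss*, 41.6, 37.8 and 19.0 for *C1qb*, *C1qa* and *C1qc*, 35.5 for *Tyrobp*, 30.6 for *Cd68* and 22 for *Fcer1g*. It was 4.78 for *Csf1r* and 0.509 for *Ptprc*, and at the low end 0.102 for *Folr2* and 0.00464 for *Cd163*. The transcripts of lysosomal and C1q proteins thus led the list, and *Folr2* and *Cd163* were low. This does not hold for all resident-type receptors, since *Mrc1* was at 1.15, above *Ptprc*. *Lyz1*, a near-identical copy of *Lyz2* from which reads could be shared, was at most 0.390 CPM. For 27 of the 32 genes no exon overlapped that of another gene. The exceptions were *Itgam* and *Folr2*, with 68.7% and 63.1% of their exon bases in common with another gene model, and *Csf1r*, *Ncf1* and *Cx3cr1* with 15.1%, 11.1% and 1.73%, where counting without strand could drop or misplace reads.

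The genes moved together from library to library. Across the 20 libraries the SD of log2(CPM + 0.1) had a median of 1.80 over the 31 genes tested, against 0.43 over all 20407 genes tested, and within groups these medians were 1.64 and 0.40. After division by the index (taken without the gene itself), the median SD of the 31 genes fell to 0.58. Pearson's *r* with the index was at least 0.9 for 27 of the 32 genes. These are descriptions without a test, over 20 libraries for which the labels do not say whether any share a culture. The highest level was in WT replicate 4 for 27 genes, in TGFβ1-treated WWP2-/- replicate 4 for 4 and in WWP2-/- replicate 1 for 1 (*Cd163*). *Fcgr3*, the low-affinity Fc receptor, kept closest to the index, with an SD of 0.20 on the log2 scale. Of the genes tested, *Folr2* (SD 1.41), *Itgax* (1.23), *Cx3cr1* (1.11), *Cd53* (1.09) and *Cd14* (1.08) departed from it most.

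Outside the list, the genes whose log2(CPM + 0.1) tracked the index most closely, among 13504 genes with a mean of at least 1 CPM, were *Cd300c2*, *Cd83*, *Rac2*, *Irf8*, *Lat2*, *Btk*, *Atp6v0d2*, *Snx20*, *Tlr13* and *Arhgap25*, with *r* from 0.995 down to 0.989 and Spearman's rho from 0.967 to 0.997 over the 20 libraries. *Cd300c2*, an activating receptor of myeloid cells, ran from 0.306 to 25.5 CPM. *Irf8*, a transcription factor that works with PU.1, ran from 0.198 to 20.7 CPM.

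Most markers of other leukocytes were at or near 0. The T-cell genes *Cd3e*, *Cd3g* and *Cd3d* reached at most 0.0325 CPM, whereas *Trac*, of the T-cell receptor, ran from 0.0617 to 3.17 CPM (median 1.29) and did not follow the index (*r* −0.0197). Of the B-cell genes, *Ms4a1* reached 0.0294 CPM and *Cd79a* 0.411 CPM. The neutrophil genes *S100a9* and *Retnlg* had no count in any library, *S100a8* reached 1.36 CPM in TGFβ1-treated WWP2-/- replicate 1, and *Csf3r* reached 0.960 CPM and followed the index (*r* 0.934). *Ly6c2* and *Ccr2*, markers of inflammatory monocytes, reached 0.0631 and 0.136 CPM, and the dendritic cell gene *Flt3* 0.0360 CPM, whereas *Plac8* (52.7 to 409 CPM), *Zbtb46* (5.22 to 10.2 CPM) and *Kit* (up to 15.8 CPM) from the monocyte, dendritic and mast cell lists were present. *Plac8* ran against the index (*r* −0.888) and *Zbtb46* did not follow it (*r* −0.128), whereas *Kit* did in part (*r* 0.846).

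PU.1 is known to bind at a short purine-rich core, GAGGAA, and the upstream sequence of some of the genes that moved together is shown with that core or with AGGAAG, which overlaps it. The 250 bases before the first start site listed in RefSeq (build GRCm38.p6) were available for 25 of the 32 genes, without *Csf1r*, *Spi1*, *Adgre1*, *Itgb2*, *Tyrobp*, *Cd14* and *C1qa*. GAGGAA on either strand was in 14 of the 25 (56%) and in 23.1% of 27025 genes. AGGAAG, which overlaps it by 5 letters and was searched in the same way, was in 12 of the 25 (48%) and in 29.2% of all. A match is a description of letters and not a binding site. Below, matches of either core on either strand are in capitals, in *C1qb* and *C1qc*, which lie side by side, in the ITAM adaptor *Fcer1g* and in *Trem2*, a lipid receptor that signals through *Tyrobp*. The window of *Fcer1g* holds AGGAAG and not GAGGAA.
C1qb, chr4:136886201-136886450, minus strand: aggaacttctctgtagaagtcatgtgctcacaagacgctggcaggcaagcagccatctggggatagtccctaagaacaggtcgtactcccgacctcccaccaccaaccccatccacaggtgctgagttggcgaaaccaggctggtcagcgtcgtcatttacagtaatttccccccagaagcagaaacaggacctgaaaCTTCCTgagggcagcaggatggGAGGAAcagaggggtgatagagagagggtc
C1qc, chr4:136892915-136893164, minus strand: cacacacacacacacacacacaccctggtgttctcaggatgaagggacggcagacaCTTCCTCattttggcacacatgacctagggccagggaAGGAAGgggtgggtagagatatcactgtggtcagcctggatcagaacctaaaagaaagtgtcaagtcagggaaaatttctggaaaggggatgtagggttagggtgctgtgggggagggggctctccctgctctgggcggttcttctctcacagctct
Fcer1g, chr1:171234350-171234599, minus strand: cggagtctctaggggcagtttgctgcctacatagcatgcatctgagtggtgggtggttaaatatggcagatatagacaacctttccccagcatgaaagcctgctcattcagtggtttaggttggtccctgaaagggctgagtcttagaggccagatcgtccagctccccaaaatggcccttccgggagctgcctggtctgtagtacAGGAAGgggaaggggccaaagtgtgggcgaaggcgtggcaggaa
Trem2, chr17:48346151-48346400, plus strand: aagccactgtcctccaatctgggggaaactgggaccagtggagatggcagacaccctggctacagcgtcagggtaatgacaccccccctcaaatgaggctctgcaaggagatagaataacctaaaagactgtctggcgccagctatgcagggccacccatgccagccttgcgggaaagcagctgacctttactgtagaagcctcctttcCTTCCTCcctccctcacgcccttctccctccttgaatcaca
In *C1qb* the matches began 52 and 30 bases before the start site, in *C1qc* 194 and 157 bases, in *Fcer1g* 44 and in *Trem2* 41 bases before it.

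The first comparison was between WWP2-/- and WT cells treated with TGFβ1, which asks what the loss of WWP2 changes in activated cells. All 31 genes tested had higher fitted levels in WWP2-/- cells, with a median log2 fold change of 2.53, against 0.05 over all genes tested, and a range of 0.54 to 3.87. At an adjusted *P* of 0.05 (edgeR's quasi-likelihood test) 2 genes were called, both higher, where 6.07% of all genes were called in either direction. At an unadjusted *P* of 0.05, 29 of the 31 were higher, against 13% of all genes. The Wald test of DESeq2 called 26 of the 31, against 13.1% of all genes. The number called therefore depended on the test, and no gene of the list separated the 10 libraries of this comparison without overlap in CPM, where 5.53% of all genes did so in either direction. The same sign in all genes is not independent support, since the genes vary together.

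The genes called were *Cd53* and *Clec7a*. *Cd53* (ENSMUSG00000040747, chr3:106759921-106790149 of GRCm38) encodes a tetraspanin of leukocyte membranes. With TGFβ1 its level was 22.3, 26.7, 6.22, 50.6 and 40 CPM in WWP2-/- replicates 1 to 5 and 6.57, 5.54, 11, 8.98 and 5 CPM in WT replicates (means 29.2±17.0 and 7.42±2.53 CPM, SD, *n*=5). All WWP2-/- libraries but replicate 3 lay above every WT library. The log2 fold change was 1.82 (SE 0.48, adjusted *P* = 0.0335, edgeR). *Clec7a* (ENSMUSG00000079293, chr6:129461591-129472779) encodes dectin-1, a receptor for fungal β-glucan. It was at 4.91, 15.5, 3.51, 117 and 77.3 CPM in TGFβ1-treated WWP2-/- replicates and at 2.13, 1.10, 7.55, 1.91 and 0.974 CPM in WT replicates (43.6±51.0 and 2.73±2.74 CPM, SD, *n*=5). Only WT replicate 3 reached into the WWP2-/- range. The log2 fold change was 3.87 (SE 1.10, adjusted *P* = 0.0454, edgeR).

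These calls rested on the libraries and terms in the fit. With both *Acta2*-poor libraries left out, 28 of the 31 genes were called higher, where the share of all genes called in either direction rose to 17.2%. Without TGFβ1-treated WWP2-/- replicate 1 alone, 14 were called (10.3% of all genes). Without TGFβ1-treated WT replicate 3, 12 were called (13.4% of all genes), and without TGFβ1-treated WWP2-/- replicate 3, 5 (6.03% of all genes). Leaving out any other library of the comparison left 0 called, with 2.23% to 3.58% of all genes called. Leaving out the 5 libraries with transcripts of both sexes also left 0, where 0.0101% of all genes were called. In the other 4 comparisons 0 genes of the list were called by edgeR without the *Acta2*-poor libraries, and 0 without those 5. Of all genes, 1.34% and 0.00505% were then called in untreated WWP2-/- against WT cells. In the rest of these comparisons 0% of all genes were called in either refit. With *Xist* as a covariate 0 were called (2.6% of all genes), and *Cd53* and *Clec7a* then stood at log2 fold changes of 1.44 and 2.32 (adjusted *P* = 0.0925 and 0.143, edgeR). A fit of only the 10 libraries compared also gave 0 (2.88% of all genes), with an adjusted *P* of 0.0529 for *Cd53* and 0.0720 for *Clec7a* (edgeR).

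**Figure D2:**
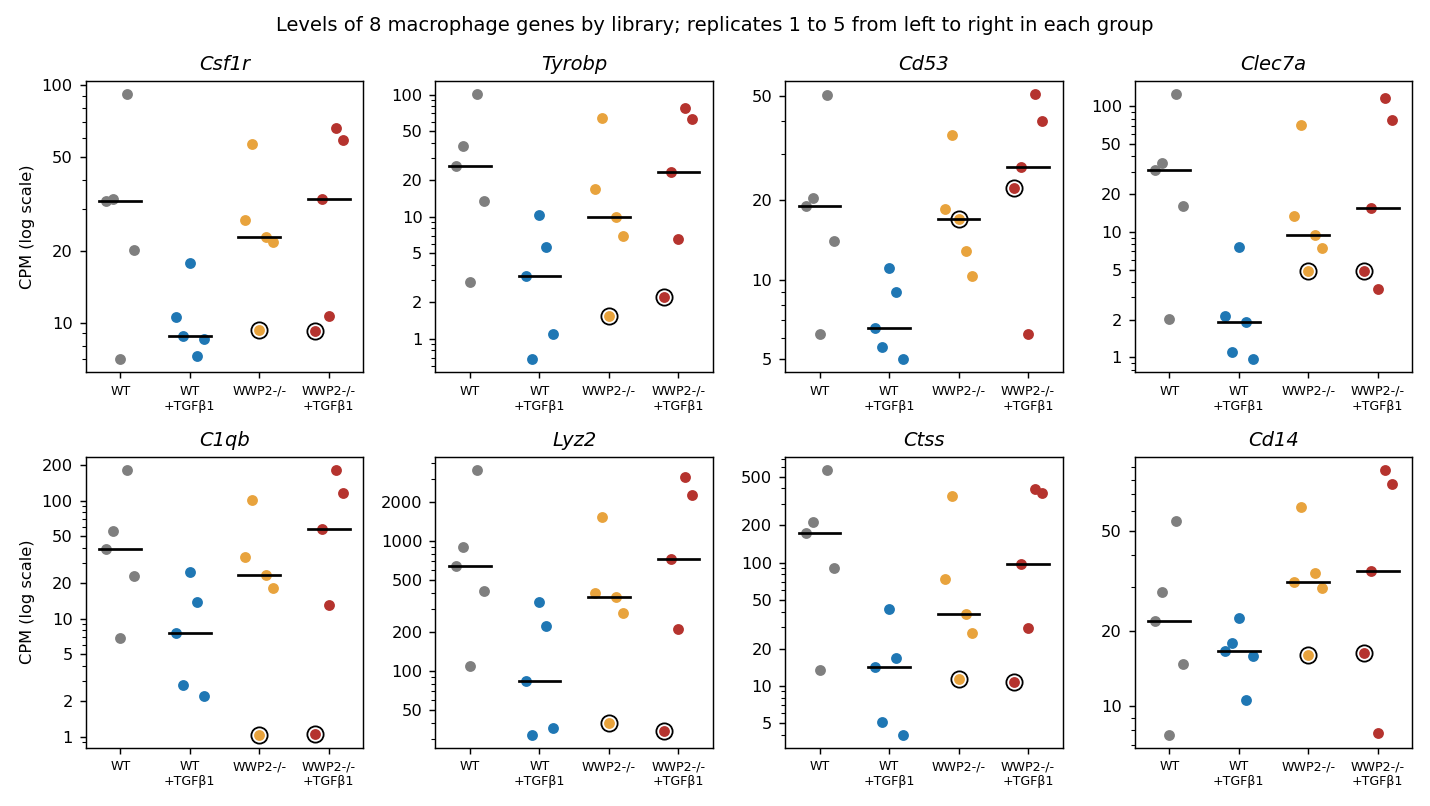
CPM on a log axis of 8 macrophage genes in each library, by group, with the group median as a bar and black rings around WWP2-/- replicate 3 and TGFβ1-treated WWP2-/- replicate 1, the libraries poor in *Acta2*. Every group spans a wide range, and for *Cd53* 4 of the 5 TGFβ1-treated WWP2-/- libraries lie above all TGFβ1-treated WT libraries.

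By role, the comparison under TGFβ1 looked as follows. *Csf1r*, the receptor for the survival factors CSF1 and IL-34, was at 9.24, 33.1, 10.7, 65.8 and 58.7 CPM in WWP2-/- and at 10.5, 8.78, 17.8, 7.23 and 8.57 CPM in WT replicates. Its WWP2-/- replicates 2, 4 and 5 lay above all WT libraries and the others among them (log2 fold change 1.59, SE 0.58, adjusted *P* = 0.103, edgeR). *Spi1* (12.9±12.8 against 2.03±1.84 CPM), *Ptprc*, the phosphatase CD45 (12.7±10.7 against 2.13±2.01 CPM), and *Cx3cr1*, the fractalkine receptor (2.30±1.40 against 0.451±0.654 CPM), had SDs near their means in at least 1 genotype (SD, *n*=5 each), and none of them was called.

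Among the genes of identity and adhesion, *Adgre1*, which encodes the F4/80 antigen, was at 15.1±8.66 against 4.13±2.21 CPM, and *Cd68*, a lysosomal membrane protein, at 55.8±48.6 against 8.85±7.25 CPM (SD, *n*=5). The largest fitted difference of this role was that of *Itgax*, the CD11c integrin chain (log2 fold change 3.38, SE 1.36), and the smallest that of *Adgre1* (1.73, SE 0.57). All 9 genes of this role were higher at an unadjusted *P* below 0.05 (13% of all genes were), and *Cd53* alone was called. The 7 genes of Fc receptors, ITAM adaptors and pattern receptors likewise all had an unadjusted *P* below 0.05, with *Clec7a* called. *Tyrobp*, the adaptor DAP12, was at 2.21, 23.0, 6.57, 77.6 and 62.5 CPM in WWP2-/- and at 3.26, 0.684, 10.3, 5.68 and 1.10 CPM in WT replicates (log2 fold change 2.89, SE 1.06, adjusted *P* = 0.102, edgeR). As for *Csf1r*, WWP2-/- replicates 2, 4 and 5 were high and the others lay within the WT range. *Cd14*, the co-receptor for lipopolysaccharide, had the smallest difference of this role (1.25, SE 0.52, adjusted *P* = 0.152, edgeR).

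The 3 chains of C1q, the protein that starts the classical complement pathway, had like differences, with log2 fold changes of 2.53 (*C1qa*), 2.71 (*C1qb*) and 2.51 (*C1qc*) and adjusted *P* values of 0.137, 0.142 and 0.165 (edgeR). *C1qb* was at 1.06, 57.3, 13, 181 and 117 CPM in WWP2-/- and at 7.57, 2.77, 24.8, 13.9 and 2.22 CPM in WT replicates, so that WWP2-/- replicate 1 lay below every WT library. *Lyz2*, the abundant lysozyme of macrophages, was at 34.7, 729, 211, 3101 and 2264 CPM against 84.7, 32.6, 338, 224 and 36.3 CPM (log2 fold change 3, SE 1.09, adjusted *P* = 0.102, edgeR). *Ctss* had a log2 fold change of 3.33 and *Mpeg1*, which encodes the pore-forming perforin-2, one of 1.98. The oxidase subunits *Cybb* and *Ncf1* stood at 2.23 and 2.49, and none of these was called. The scavenger receptors *Mrc1* (the mannose receptor) and *Cd36* (a fatty acid and lipoprotein receptor) stood at 2.74 and 2.99, and *Folr2*, the folate receptor of resident macrophages, at 0.54 (adjusted *P* = 0.425, edgeR), with levels no higher than 0.265 CPM.

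Untreated, the genotypes did not differ detectably. Of the 31 genes 30 had lower fitted levels in WWP2-/- cells, with a median log2 fold change of −0.84 against 0.08 over all genes tested. None was called by edgeR (0.725% of all genes were), 0 had an unadjusted *P* below 0.05 (6.84% of all genes were lower at that level), and DESeq2 called 0 (3.64% of all genes). The most negative value was that of *Ctss* (−1.16, SE 1), and *Cd14* was the gene with a positive sign (0.40, SE 0.52). *Tyrobp* was at 16.9, 64.2, 1.54, 9.95 and 6.99 CPM in WWP2-/- and at 26.2, 37.7, 2.91, 101 and 13.5 CPM in WT replicates. The lowest and highest of these 10 libraries were WWP2-/- replicate 3 and WT replicate 4, and the ranges of the genotypes overlapped. The sign rested on WT replicate 4: without it the median was −0.04, and 12 of the 31 genes stood higher in WWP2-/- cells.

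In WT cells, TGFβ1-treated libraries had lower fitted levels of all 31 genes, with a median log2 fold change of −2.48 against 0.02 over all genes tested. No gene was called by edgeR, as for 0% of all genes in this comparison. At an unadjusted *P* of 0.05, 29 of the 31 were lower, against 4.18% of all genes, and DESeq2 called 1 (*Clec7a*, adjusted *P* = 0.0352, DESeq2), where it called 0.132% of all genes. *Clec7a* was at 31.2, 35.5, 2.02, 125 and 16 CPM in untreated WT replicates, which places replicate 3 within the treated range of 0.974 to 7.55 CPM and the others above it (log2 fold change −3.84, SE 1.10, adjusted *P* = 0.641, edgeR). *Ctss* was at 174, 214, 13.3, 565 and 89.6 CPM untreated and at 14.2, 5.07, 41.9, 16.7 and 4 CPM with TGFβ1, again with untreated replicate 3 among the treated libraries (−3.59, SE 1.10, adjusted *P* = 0.641, edgeR). *Cd14* moved least (−0.49, SE 0.52), at 25.6±18.2 CPM untreated and 16.7±4.26 CPM treated (SD, *n*=5).

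In WWP2-/- cells, 30 of the 31 genes had higher fitted levels with TGFβ1, with a median log2 fold change of 0.82 against 0.00 over all genes tested. None was called (0% of all genes were), 0 had an unadjusted *P* below 0.05 (1.05% of all genes were higher at that level), and DESeq2 called 0 (0.24% of all genes). *Fcgr1*, the high-affinity Fc receptor, had the largest difference (1.51, SE 0.89, adjusted *P* = 1, edgeR) and *Folr2* the one negative sign (−0.06, SE 0.38). The interaction of genotype and treatment, which asks whether TGFβ1 acted differently in the genotypes, had a positive sign for all 31 genes, with a median of 3.44 on the log2 scale against −0.02 over all genes tested. No gene was called (0% of all genes were), 28 had an unadjusted *P* below 0.05 in the positive direction (3.65% of all genes), and DESeq2 called 0 (0.049% of all genes). The largest interaction was that of *Clec7a* (4.90, SE 1.47, adjusted *P* = 0.511, edgeR). These comparisons share libraries: TGFβ1-treated WT cells enter the comparison of genotypes under TGFβ1, that of treatment in WT cells and the interaction. A different response to TGFβ1 in the genotypes is therefore not shown.

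**Figure D3:**
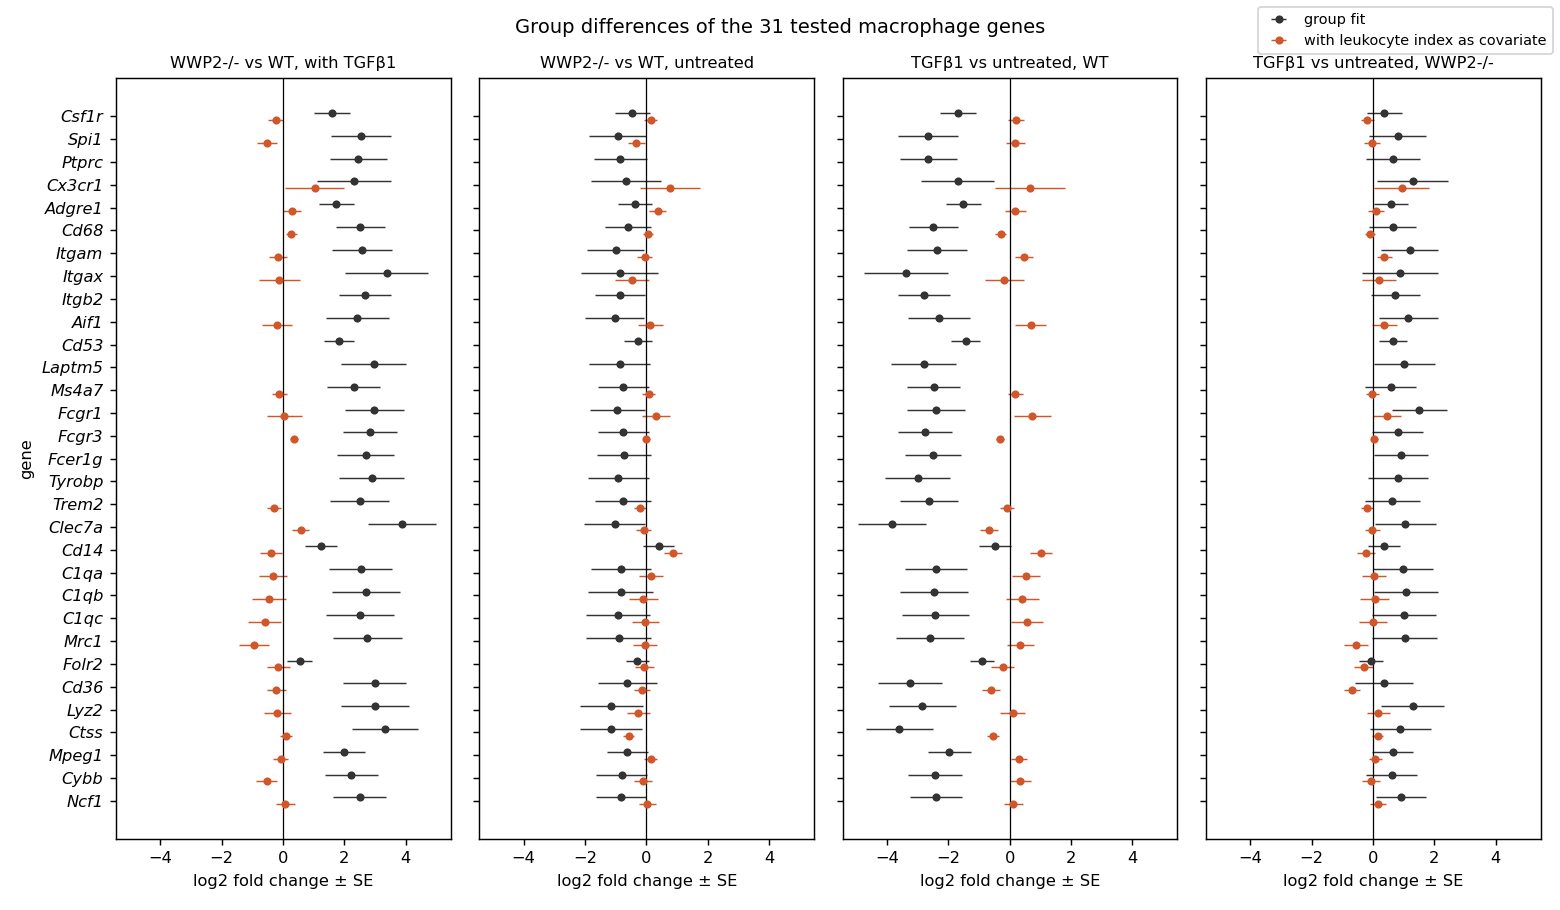
Log2 fold change with its SE of the 31 tested macrophage genes in 4 comparisons, from the fit on groups alone (dark) and, for the 25 tested genes outside the index, from the fit with the leukocyte index as a covariate (orange). The dark points lie right of 0 in the first panel (median 2.53) and left of 0 in the third (median −2.48), and the orange points of both panels lie around 0 (medians −0.16 and 0.19).

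The state of the macrophages was read as the level of each gene relative to the leukocyte index. The index was added to the fit as a covariate, and the 25 tested genes outside the index were read. At a like leukocyte signal the differences came close to 0. The index was built from genes of the same list that vary with the others, so a shift toward 0 follows largely from that choice. Between WWP2-/- and WT cells under TGFβ1 the median log2 fold change was −0.16 (all genes tested 0.01), from −0.94 for *Mrc1* (SE 0.48, adjusted *P* = 0.266, edgeR) to 1.04 for *Cx3cr1* (SE 0.96). No gene was called (1.48% of all genes were), and 1 of 25, *Fcgr3*, had an unadjusted *P* below 0.05 (0.36, SE 0.13, adjusted *P* = 0.12, edgeR), against 21.2% of all genes. *Clec7a*, called without the index, was at 0.57 (SE 0.28, adjusted *P* = 0.252, edgeR). Untreated, the median was −0.03, no gene was called (3.61% of all genes were), and 2 of 25 had an unadjusted *P* below 0.05 (20.4% of all genes), *Ctss* with −0.58 (SE 0.17, adjusted *P* = 0.0697, edgeR) and *Cd14* with 0.88 (SE 0.29, adjusted *P* = 0.105, edgeR). DESeq2 was not run with the index.

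For TGFβ1 against untreated, the fit with the index called none in WT cells (0.0049% of all genes were called), where 5 of 25 had an unadjusted *P* below 0.05 (7.48% of all genes). They were *Cd14* (1.04, SE 0.36), which stood higher with TGFβ1, and *Clec7a* (−0.68, SE 0.29), *Cd36* (−0.61, SE 0.29), *Ctss* (−0.53, SE 0.20) and *Fcgr3* (−0.32, SE 0.13), which stood lower, with adjusted *P* from 0.556 to 0.667 (edgeR). In WWP2-/- cells none was called (0% of all genes) and 1 of 25 had an unadjusted *P* below 0.05 (5.46% of all genes), *Cd36* with −0.69 (SE 0.26, adjusted *P* = 0.775, edgeR).

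Relative to the index, single libraries differed more than groups. In the *Acta2*-poor libraries, C1q was scarce for the leukocyte signal present. *C1qb* was at 0.262 and 0.234 times the index there, against 1.26 to 2.47 times in the other 18 libraries, and *C1qc* at 0.220 and 0.258 times against 0.952 to 2.17 times. *Itgax* was at 0.0510 and 0.0366 times against 0.178 to 0.770, and *Lyz2* at 9.17 and 7.01 times against 17.4 to 42.2. In all, 10 of the 31 tested genes lay below and 3 (*Cd68*, *Cd53* and *Fcgr3*) above the range of the other 18 libraries in both. *Cd53* was at 5.10 and 6.12 times the rest of the index there, against 0.520 to 3.75 elsewhere. Set against *Tyrobp* in place of the index, 3 genes (*Itgax*, *C1qb* and *C1qc*) lay below and 4 (*Cd68*, *Cd53*, *Fcgr3* and *Clec7a*) above in both, so *Itgax*, *C1qb* and *C1qc* were low and *Cd68*, *Cd53* and *Fcgr3* high by either measure. These libraries were picked for *Acta2*, and the ratios are a description without a test. The labels do not say whether the *Acta2*-poor libraries share a culture. How many of all genes lay outside the range of the other 18 libraries was not counted, so these numbers have no background.

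**Figure D4:**
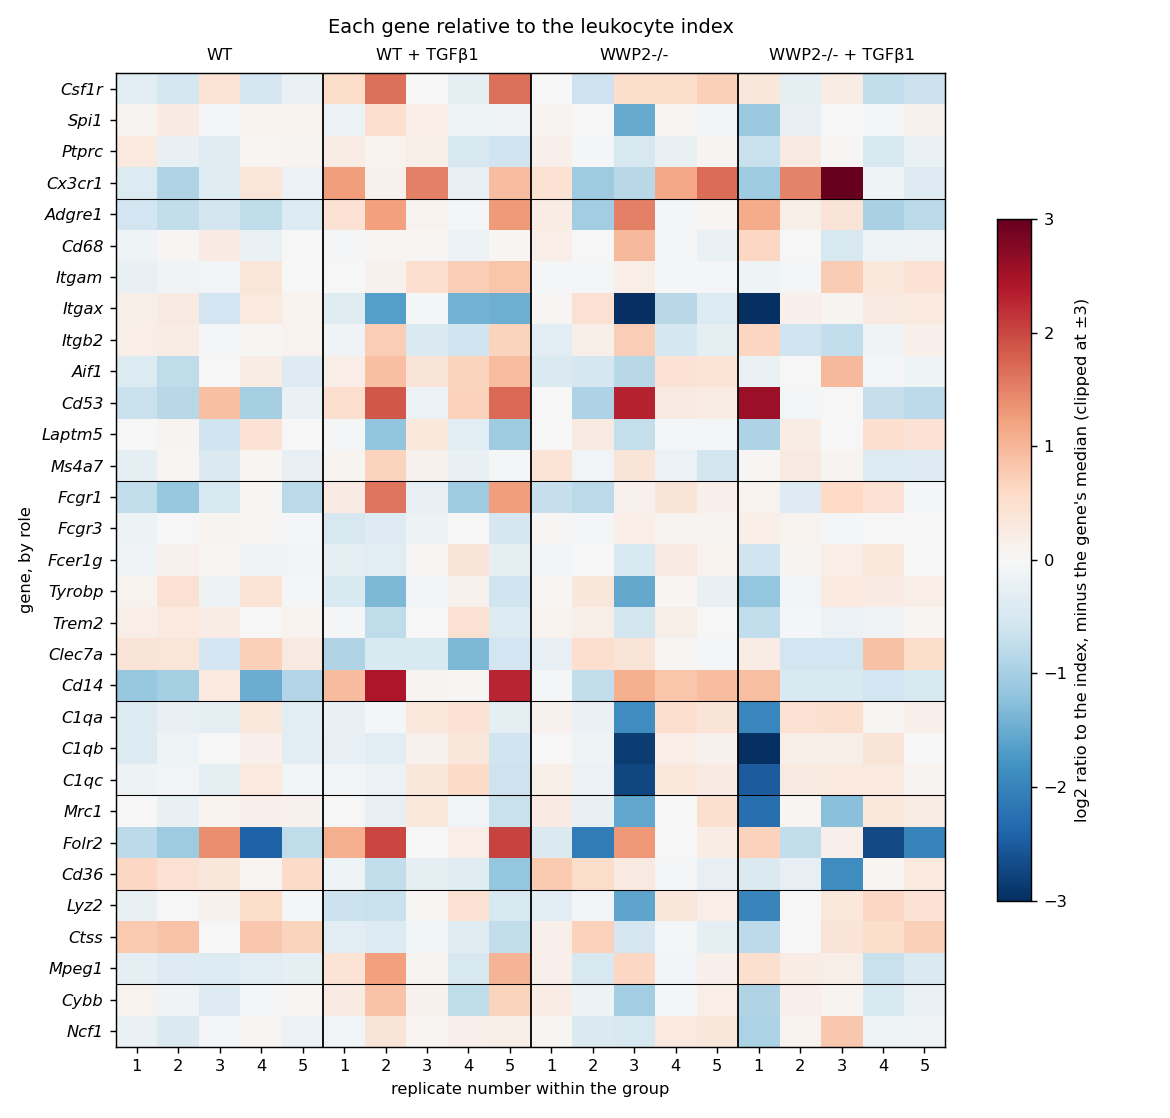
Level of each gene relative to the leukocyte index (taken without that gene) in each library, on the log2 scale, minus the gene's median over the 20 libraries and clipped at ±3; *Cd163* is left out. Most rows are pale, and the strong departures lie in WWP2-/- replicate 3 and TGFβ1-treated WWP2-/- replicate 1 (low C1q, *Itgax* and *Lyz2*, high *Cd53*) and in TGFβ1-treated WT replicates 2 and 5 (high *Csf1r*, *Cd14*, *Fcgr1* and *Folr2*). In these WT replicates the values of *Fcgr1* and *Folr2* rest on few counts.

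In TGFβ1-treated WT replicates 2 and 5, which had the lowest index, a few genes stood above all other libraries relative to the index. *Csf1r* was at 4.73 and 4.69 times the index there, against 0.897 to 2.48 in the other 18 libraries, and *Cd14* at 9.59 and 8.62 times, against 0.633 to 3.69. *Mpeg1* (10.8 and 9.40 times, 2.91 to 7.07 elsewhere), *Fcgr1*, *Folr2* and *Cybb* did the same, and *Laptm5* lay below (1.13 and 1.24 times, 1.35 to 3.69 elsewhere). *Fcgr1* had only 16 and 11 counts there and *Folr2* 4 in each library. The level of *Folr2*, 0.072 CPM, was below the 0.1 CPM added before the log, so its ratio mostly reflects the low index. These libraries were singled out after their values were seen. Whether other cells of the culture gave these transcripts was not tested. Among the C1q chains, *C1qa* was at 0.672 to 1.07 times *C1qb* in the libraries that were not *Acta2*-poor. In the *Acta2*-poor libraries it was at 1.75 (WWP2-/- replicate 3) and 1.83 times (TGFβ1-treated WWP2-/- replicate 1). The median over all libraries was 0.943.

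Tubular transcripts, taken as a sum, moved with the macrophage genes from library to library. The 11 tubular genes summed to 285, 343, 32.3, 463 and 158 CPM in untreated WT replicates 1 to 5 and to 113, 60.2, 213, 34.0 and 44.6 CPM in TGFβ1-treated WT replicates. They summed to 292, 802, 16.2, 269 and 252 CPM in untreated and to 13.8, 284, 89.6, 510.3 and 605 CPM in TGFβ1-treated WWP2-/- replicates. The *Acta2*-poor libraries were the lowest, and libraries with a high leukocyte index were high. The keratin gene *Krt18* and the epithelial adhesion genes *Epcam* and *Cdh1* followed the index with *r* of 0.968, 0.952 and 0.921 (rho 0.962, 0.952 and 0.905), whereas the tubular uptake receptor *Cubn* did so less (*r* 0.561) and *Slc34a1* and *Aqp2*, which mark proximal tubule and collecting duct, were at or near 0. The sum of the 7 endothelial genes lay between 19.1 and 239 CPM. Under TGFβ1 edgeR called *Kdr* (−1.76, adjusted *P* = 0.0351) and *Tek* (−2.87, adjusted *P* = 0.0135) lower in WWP2-/- cells. Of the 7, 4 had positive signs. Untreated, *Tek* was also called lower (−3.32, adjusted *P* = 0.023, edgeR). Without the *Acta2*-poor libraries these values stood at −1.92, −2.90 and −3.56 (adjusted *P* = 0.0199, 0.0132 and 0.0334, edgeR). Without the 5 libraries with transcripts of both sexes they stood at −1.69, −2.90 and −3.11, none called. Fibroblast transcripts moved against the macrophage genes under TGFβ1. All 10 fibroblast genes had lower fitted levels in WWP2-/- than in WT cells (median log2 fold change −2.34). DESeq2 called 6 of them lower (13.1% of all genes in either direction) and edgeR 3 (6.07% of all genes). By edgeR the 3 were the collagen genes *Col1a1* (−1.98, adjusted *P* = 0.0492) and *Col1a2* (−2.63, adjusted *P* = 0.0142) and the matricellular *Postn* (−2.44, adjusted *P* = 0.0407). Without the *Acta2*-poor libraries they stood at −1.78, −2.61 and −2.85 (adjusted *P* = 0.0460, 0.0171 and 0.0132, edgeR), and without the 5 libraries with transcripts of both sexes at −1.98, −2.64 and −2.44 (adjusted *P* = 0.203, 0.106 and 0.182, edgeR). *Pdgfrb* and *Dcn* ran against the index (*r* −0.698 and −0.722), *Col1a1* less so (*r* −0.537), and *Acta2* did not (*r* 0.271). The part of tubular, endothelial and fibroblast cells in the differences between groups was not tested.

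The sex of the cells also moved with the signal. In the 6 libraries with *Xist* and no Y-linked transcripts above 1 CPM the index was between 1.85 and 5.86 CPM (median 3.99), in the 9 with Y-linked transcripts alone between 6.14 and 87.2 CPM (median 26.8) and in the 5 with both between 4.82 and 32 CPM (median 18.1). The groups held these kinds unequally. With TGFβ1, 4 of 5 WWP2-/- libraries had Y-linked transcripts alone, with an index of 6.14 to 73.5 CPM, and 1 of 5 WT libraries did, at 12 CPM. The 3 TGFβ1-treated WT libraries with *Xist* alone were at 1.85, 1.88 and 5.86 CPM and the only such WWP2-/- library, poor in *Acta2*, at 4.96 CPM. Within neither kind did WT lie clear of WWP2-/- cells. Each kind held a single library of 1 genotype, too few to compare the genotypes within it. Untreated WT replicate 3, with *Xist* alone, was at 3.60 CPM, within the range of its TGFβ1-treated counterparts, and untreated WT replicate 4, with Y-linked transcripts alone, was at 87.2 CPM. Sex and group cannot be told apart in most of these comparisons.

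**Figure D5:**
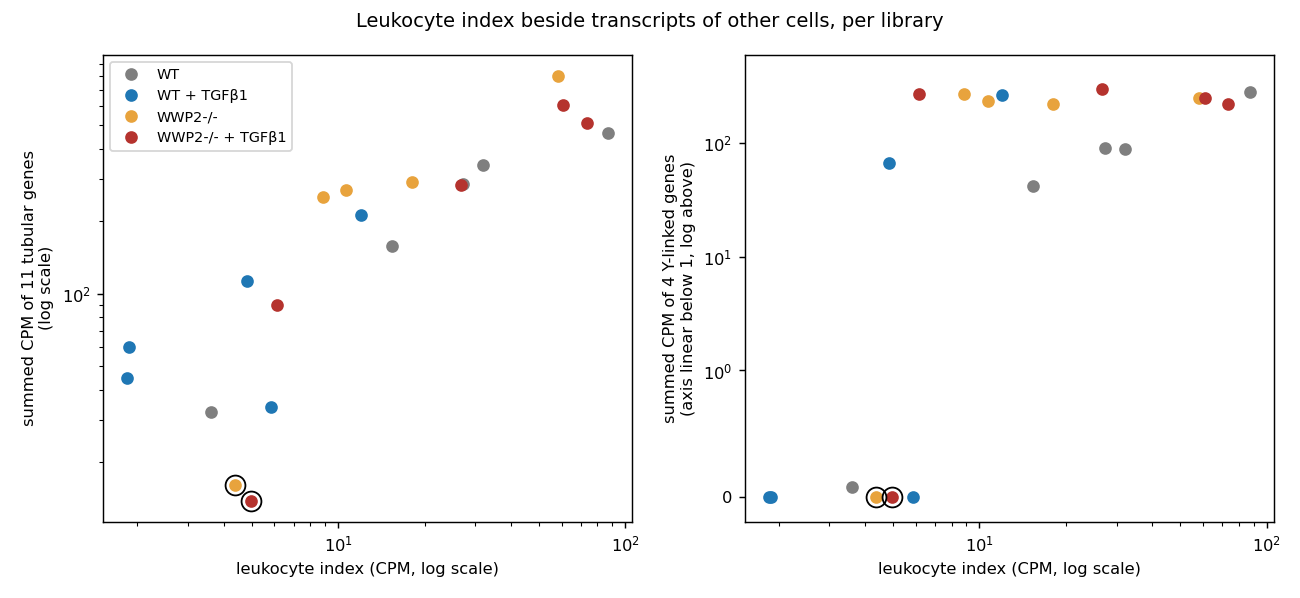
Leukocyte index of each library (CPM, log axis) against the summed CPM of 11 tubular genes (left) and of 4 Y-linked genes (right), coloured by group, with rings around the *Acta2*-poor libraries. Tubular transcripts rise with the index, and the 6 libraries with under 1 CPM of Y-linked transcripts all have an index of at most 5.86 CPM.

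Further genes were read from lists of related function. Of 37 other macrophage genes, 35 could be tested, and 22 of the 37 had *r* of at least 0.9 with the index. Under TGFβ1, 2 of the 35 were higher and 1 lower in WWP2-/- cells (adjusted *P* below 0.05, edgeR), where 6.07% of all genes were called in either direction. The median log2 fold change of the 35 was 2.13. DESeq2 called 17 higher and 2 lower (13.1% of all genes in either direction). *Csf2rb*, the signalling chain of the GM-CSF receptor, was higher (3.58, SE 0.96, adjusted *P* = 0.0346, edgeR), as was *Evi2a* (3.10, SE 0.85, adjusted *P* = 0.0375, edgeR), a membrane protein gene of leukocytes, with its highest level in the *Acta2*-poor TGFβ1-treated WWP2-/- replicate 1. *Maf*, a transcription factor of macrophages and other cells, was lower (−1.45, SE 0.22, adjusted *P* = 0.00527, edgeR). Without the *Acta2*-poor libraries *Csf2rb*, *Evi2a* and *Maf* stood at 3.62, 2.19 and −1.44 (adjusted *P* = 0.0255, 0.0330 and 0.00645, edgeR). Without the 5 libraries with transcripts of both sexes they stood at 3.55, 3.01 and −1.43 (adjusted *P* = 0.183, 0.202 and 0.0724, edgeR). In the other comparisons 0 of the 35 were called by edgeR. At an unadjusted *P* of 0.05, 1 was lower in untreated WWP2-/- cells (6.84% of all genes). With TGFβ1, 21 were lower in WT cells (4.18% of all genes) and 1 was higher in WWP2-/- cells (1.05% of all genes). In the same order DESeq2 called 1 lower, 1 lower and 0 (3.64%, 0.132% and 0.24% of all genes in either direction).

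The ligand genes differed in how they went with the index. *Csf1* was present in every library at 285 to 3888 CPM, highest in TGFβ1-treated WWP2-/- replicate 1 (*r* with the index −0.487), while *Il34*, the other ligand of the CSF1 receptor, ran from 1.81 to 73.5 CPM and was higher where the index was high (*r* 0.721). *Ccl2*, which attracts monocytes, reached 2191 CPM in TGFβ1-treated WWP2-/- replicate 1 against a median of 34.9 CPM. None of the 6 ligand genes was called in any comparison by edgeR. At an unadjusted *P* of 0.05, 1 was higher in WWP2-/- cells with TGFβ1 (13% of all genes) and 1 untreated (1648 of all 20407 genes). DESeq2 called 1 higher in each of these comparisons (13.1% and 3.64% of all genes in either direction) and 0 in the others.

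Of the genes of inflammatory activation, some were low, some peaked in an *Acta2*-poor library and some followed the index in part. *Il12b* reached 0.0325 CPM, *Il1b* 2.53 CPM and *Tnf* 1.36 CPM, and *Nos2*, inducible nitric oxide synthase, reached 45.5 CPM in TGFβ1-treated WWP2-/- replicate 1 against a median of 0.0700 CPM. *Il6* and *Ptgs2* also peaked in an *Acta2*-poor library, at 66.3 and 1714 CPM. *Cd86*, *Ccl3* and *Ccl4* peaked in other libraries, at 1.54, 5.72 and 2.74 CPM, and followed the index in part (*r* 0.842, 0.802 and 0.738). *Cd80* was at 6.30 to 17.8 CPM and ran against the index (*r* −0.690). Of the alternative state, *Retnla* had no count and *Chil3* and *Il10* reached 0.0440 and 0.0547 CPM, while *Arg1* reached 13.5 CPM. The broadly expressed *Il4ra*, the interleukin 4 receptor chain, and *Socs3*, an inhibitor of cytokine signalling, were present in every library, at 62.6 to 249 and 7.18 to 76.7 CPM. None of the 9 inflammatory and 3 alternative genes tested was called under TGFβ1 by edgeR (6.07% of all genes were). At an unadjusted *P* of 0.05, 5 inflammatory genes and 1 alternative gene were higher (13% of all genes). At that level 1 alternative gene was lower (2381 of all 20407 genes). DESeq2 called 4 inflammatory genes higher and 0 alternative genes (13.1% of all genes in either direction).

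Genes of lipid handling and phagocytosis were abundant. *Spp1* (osteopontin) ran from 563 to 16085 CPM, *Gpnmb* from 108 to 1960.02 CPM and *Apoe* from 14.6 to 2032 CPM. *Lgals3* and *Mmp12* followed the index (*r* 0.922 and 0.939), whereas *Lpl* did not (*r* 0.244). Of the 16 genes 1 was called in WWP2-/- against WT cells under TGFβ1, where 6.07% of all genes were called. It was *Plin2*, a coat protein of lipid droplets in many cells (1.51, SE 0.32, adjusted *P* = 0.0137, edgeR). DESeq2 called 7 higher (13.1% of all genes in either direction). Of the osteoclast genes, *Atp6v0d2* followed the index (*r* 0.989) and *Mmp9* was called higher under TGFβ1 (5.18, SE 1.15, adjusted *P* = 0.0158, edgeR), with its peak of 46.9 CPM in TGFβ1-treated WWP2-/- replicate 1, while *Dcstamp*, *Ocstamp* and *Calcr* stayed at or below 0.210 CPM. Of genes that TGFβ sustains in microglia, *Siglech* had no count, *P2ry12* reached 0.950 CPM and *Gpr34* 0.251 CPM. *Tmem119* and *Olfml3* were lower in WWP2-/- cells under TGFβ1 (−4.00, SE 0.79, adjusted *P* = 0.0121, and −4.59, SE 0.76, adjusted *P* = 0.00614, edgeR), and *Olfml3* also untreated (−3.74, adjusted *P* = 0.0269, edgeR). Both ran against the index (*r* −0.630 and −0.520) and reached 118 and 310 CPM in TGFβ1-treated WT libraries. Without the *Acta2*-poor libraries *Mmp9* stood at 4.39, *Plin2* at 1.49, *Tmem119* at −4.39 and *Olfml3* at −4.91 (adjusted *P* = 0.0101, 0.0103, 0.00896 and 0.00645, edgeR). Without the 5 libraries with transcripts of both sexes they stood at 5.16, 1.5, −4.04 and −4.63 (adjusted *P* = 0.121, 0.0998, 0.0921 and 0.0724, edgeR), and untreated *Olfml3* at −4.02 and −3.07 (adjusted *P* = 0.0353 and 1, edgeR) in the same order.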

How the data were processed

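RNA-seq libraries were made from poly-A RNA of cultured renal cells, 20 libraries in 4 groups of 5. The authors deposited raw counts for each gene of build GRCm38, 1 column a library, without normalization, and these counts were used as deposited. Depth is given as total counts. Counts were tested in R 4.3.3 with edgeR 4.0.16 (TMM scaling, quasi-likelihood test, all 20 libraries in 1 fit, genes that reached 5 counts in 5 or more libraries, Benjamini-Hochberg adjustment over 20407 genes). The SE was taken from the log2 fold change and its F value. Alternatives were DESeq2 1.42.0, other scalings and filters, a replicate block, an *Xist* covariate, a fit of only the groups compared and leaving out libraries. Tests were checked on simulated data. CPM used total counts and RPKM the exon length of the annotation. All 32 genes were accounted for by role, with genes past the threshold named. Members and lists were chosen with earlier results of these data known. The core AGGAAG had been counted in a longer promoter window before GAGGAA and the present window were chosen, so both are given.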

Additional observations from a re-analysis of the deposited data

Results flagged for a closer look

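In 32 of 124 groups of 5 libraries, taken gene by gene, 1 library stood apart from the other 4 (its gap to the nearest over the group's range was above Dixon's critical value of 0.71). Dixon's value gives about 1 in 20 by chance for normally distributed values. Here the rule was applied to CPM without a log, and levels spread widely, so the share flagged cannot be set against that chance. The genes are also not independent, since they vary together. There were 12 such groups in WT, 7 in TGFβ1-treated WT, 13 in WWP2-/- and 0 in TGFβ1-treated WWP2-/- cells.

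In WT cells replicate 4 was the highest in all 12. It held *Cx3cr1* at 5.41, *Itgam* at 11.3, *Aif1* at 4.94, *Laptm5* at 246, *Fcgr1* at 6.02 and *Clec7a* at 125 CPM. It also held *C1qa* at 174, *C1qb* at 183, *C1qc* at 157, *Mrc1* at 29.2, *Lyz2* at 3529.6 and *Ncf1* at 30.2 CPM. This library had Y-linked transcripts without *Xist*, unlike the other untreated WT libraries. In TGFβ1-treated WT cells replicate 3 was the highest in all 7, with *Adgre1* at 7.95, *Itgax* at 6.38, *Itgb2* at 14.4, *Laptm5* at 31.8, *Ms4a7* at 5.16, *Clec7a* at 7.55 and *Cybb* at 14.98 CPM. It too was the one library of its group with Y-linked transcripts and no *Xist*.

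In WWP2-/- cells replicate 2 was the highest in 12 of 13. Its levels were 99.6 for *Cd68*, 5.63 for *Itgam*, 44.7 for *Itgax*, 100.02 for *Itgb2*, 150.4 for *Laptm5* and 47.04 CPM for *Fcgr3*. They were 47.2 for *Fcer1g*, 64.2 for *Tyrobp*, 59.8 for *Trem2*, 71.3 for *Clec7a*, 1523 for *Lyz2* and 346 CPM for *Ctss*. This library also had the highest sum of tubular transcripts of all 20, 802 CPM. The remaining case was the lowest library, replicate 3, with *Cx3cr1* at 0.0206 CPM, which is 1 of the *Acta2*-poor libraries. The part of sex and of tubular cells in these values was not tested.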

How the results depend on the processing

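No gene with an unadjusted *P* below 0.05 in WWP2-/- against WT cells under TGFβ1, TGFβ1 against untreated WT cells or the interaction changed direction under the alternatives run. For WWP2-/- against WT cells under TGFβ1, the 2 genes called became 1 with no filter (2.25% of all genes) and 26 with DESeq2 (13.1%). They became 0 in a fit of only the groups compared (2.88%) and 0 with an *Xist* covariate (2.6%). With libraries chosen after seeing the data left out, 28 were called without the *Acta2*-poor libraries (17.2% of all genes). Without the 5 libraries that held *Xist* and Y-linked transcripts 0 were called (0.0101%). Leaving out 1 library at a time gave 0 to 14 (2.23% to 13.4% of all genes). With the replicate block 0 were called (3.28% of all genes), and it changed no other call. *Cd53* then stood at 1.67 (adjusted *P* = 0.0668, edgeR) and *Clec7a* at 3.06 (adjusted *P* = 0.208, edgeR). The numbers do not pair the samples: correlations of same-numbered libraries ran from −0.52 to 0.44 over the 4 pairs of groups, and in none of them did every library correlate best with its own number. Some correlated best with another number, such as WWP2-/- replicate 3 with TGFβ1-treated WWP2-/- replicate 1, and WT replicate 4 with TGFβ1-treated WT replicate 3. Whether libraries of different numbers share a culture was not tested. For TGFβ1 against untreated WT cells DESeq2 called 1 (0.132% of all genes). With the leukocyte index, untreated WWP2-/- against WT cells gave 1 without the *Acta2*-poor libraries and 0 to 1 with 1 library left out (1 without WT replicate 4). With 1 library left out, both the genotype comparison under TGFβ1 and TGFβ1 against untreated in WT cells gave 0 to 1 (1 without TGFβ1-treated WT replicate 4). The cause was not tested. The share of all genes called in these refits with the index was not counted, so these single calls have no background. Without scaling factors the median of all genes under TGFβ1 moved from 0.05 to 0.18 and that of the macrophage genes from 2.53 to 2.66, all 31 staying positive. Depth limits *Cd163* and *Folr2*, which lay near the floor of 3 counts, and the genes tested had a median SD of 1.64 within groups on the log2 scale.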
